A study of Mus musculus with 5 samples.

Results

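The library of mouse bone marrow mesenchymal stem cells (BMSCs) held at -80 mmHg, the mildest of 4 negative pressures, was compared with the libraries held at -120, -160 and -200 mmHg. Genes entered when their FPKM averaged 5 or more over these 4 libraries, which left 7524 of 55401 genes in the deposited table, 7190 of them protein coding. FPKM counts fragments for each kilobase of exon relative to the size of the library, so it is a level per length. For each gene the mean of log2(FPKM + 1) over the 3 stronger pressures was subtracted from log2(FPKM + 1) at -80 mmHg, and this value is called the log2 difference below. The added 1 makes the difference smaller for genes with low FPKM. The -80 mmHg library is 1 of 5 samples in the series, and the other samples are the 3 stronger pressures and a control at 0 mmHg, whose values are given beside the others and enter no difference.

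All samples were wild-type (WT) cells from bone marrow, seeded in T25 plates and grown for 72 h. A vacuum pump held the plates of the 4 pressure groups at a constant negative pressure for 48 h, and the control was kept at 0 mmHg. Each pressure had 1 library, and nothing in the labels says whether the plates came from separate animals or cell preparations, so no difference has a replicate check and none was tested. The library totals, worked out from FPKM and exon length, lay between 16600622 and 18398911 reads, with 16638646 at -80 mmHg. Intervals given below are exact 95% intervals of a ratio of reads, and they cover the counting of reads only.

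BMSCs are adherent stromal cells of the marrow that give rise to osteoblasts, adipocytes and chondrocytes. Negative pressure is used on wounds, where suction deforms the tissue, and stromal cells sense deformation through ion channels such as Piezo1, through integrin adhesions tied to actin, and through the transcriptional coactivators YAP and TAZ. The same cells secrete the collagens and basement membrane proteins of their surroundings and carry an interferon response, in which the ISGF3 complex and other factors bind repeated GAAA letters in the promoters of antiviral genes.

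The 4 pressure libraries were close to each other. In 88.2% of the measured genes the log2 difference at -80 mmHg was under 0.2 in size, with a median of -0.01 over all measured genes, 47.5% of them above 0 and 52.5% below. A gene passed the size rule when the difference reached 1.3-fold, a log2 of 0.3785, and the -80 mmHg value lay outside the range of the 3 others. By this rule 40 genes were higher at -80 mmHg, 0.532% of those measured, and 53 were lower, 0.704%. The same rule on each of the other libraries, which share these samples, called 33 genes higher (0.439%) and 35 lower (0.465%) for -120 mmHg. For -160 mmHg it called 61 higher (0.811%) and 37 lower (0.492%). The -200 mmHg library had 31 higher (0.412%) and 23 lower (0.306%). On these values the number of calls at -80 mmHg was within the range of the other libraries for higher genes and above it for lower genes, and the order for lower genes turned with the length trend removed, as given below. At the edge of the rule, Prtn3 with 0.383 and Casp4 with -0.380 lay just inside, and Hspg2 with 0.378 and Clec3b with -0.373 lay just outside.

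**Figure D1:**
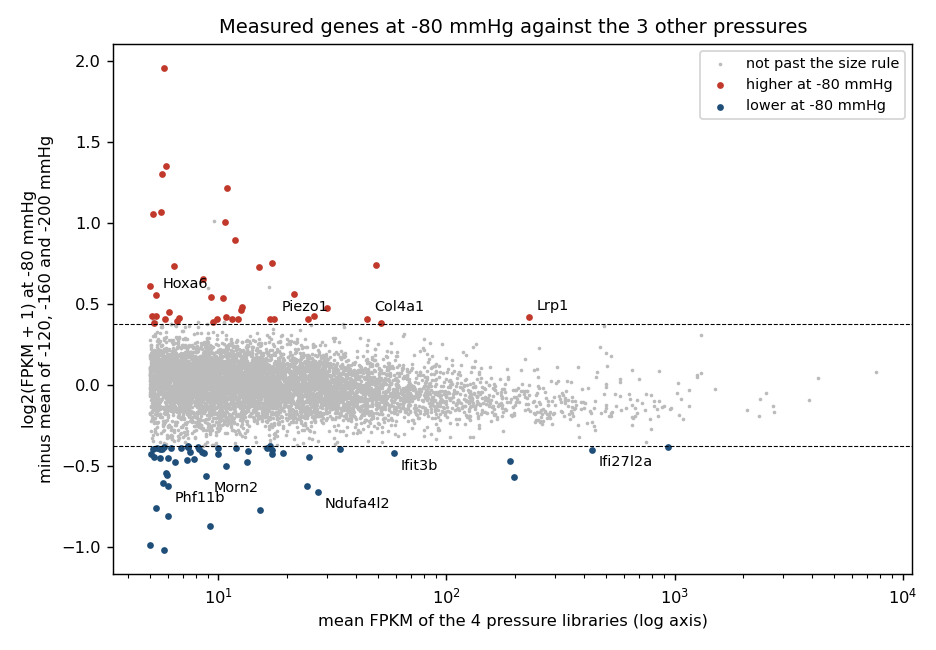
Each point is 1 of 7524 measured genes, with the mean FPKM of the 4 pressure libraries on a log axis against the log2 difference of the -80 mmHg library from the mean of the 3 other pressures. Dashed lines mark the 1.3-fold size. The 40 higher genes are red and the 53 lower genes blue, and the largest differences belong to genes of low FPKM.

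Many of the largest differences belonged to very short transcripts with few reads. Of the 40 higher genes 19 had exons under 200 nt in all, with 10 to 79 reads at -80 mmHg (median 19), and of the 53 lower genes 12 were that short. Over all 7524 measured genes 77 were that short. The higher set held 7 miRNA, 5 snoRNA and 4 snRNA genes, and only 14 protein-coding genes, while the lower set held 34 protein-coding genes. The snoRNA gene Gm23969 had the largest difference, 1.96, and it rested on 17 reads at -80 mmHg against 3, 2 and 7 reads at -120, -160 and -200 mmHg, a ratio of 4.40 (1.98 to 10.1). Mitochondrial tRNA genes went both ways: mt-Te had 68.8 FPKM at -80 mmHg and 31.3 to 57.9 at the other pressures, while mt-Tn had 145 against 193 to 251. The read interval lay above 1 in 28 of the 39 higher genes with whole reads and below 1 in 41 of the 53 lower genes. These are the reads that chose the genes, so the intervals are no separate check. Over measured genes of at least 200 nt with whole reads, the interval excluded 1 in 3334 of 7343 (45.4%). The genes described below by name have exons of at least 200 nt.

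The difference at -80 mmHg moved with exon length. Among measured genes sorted into 10 groups by exon length, the median log2 difference went from -0.08 in the shortest group (median 952 nt) to 0.09 in the longest. Across genes, which are not independent replicates, Spearman's rho between exon length and the difference was 0.42 at -80 mmHg, against -0.24 at -120 mmHg, 0.08 at -160 mmHg and -0.26 at -200 mmHg. The protein-coding genes called higher had a median exon length of 4124 nt and those called lower 1432 nt, with 3960 nt over all measured genes. With this trend removed from every library, 41 genes were higher (0.545%) and 25 lower (0.332%), and 31 and 23 of these were called on the deposited values too. The -120 mmHg library then had 21 higher (0.279%) and 56 lower genes (0.744%). For -160 mmHg these numbers were 71 (0.944%) and 30 (0.399%), and -200 mmHg had 21 higher (0.279%) with 30 lower (0.399%). The -80 mmHg library thus had the fewest lower genes with the trend removed, and the most on the deposited values. The part of RNA quality or library preparation in the length trend was not tested, so the median with the trend removed stands beside that of each pathway list below.

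**Figure D2:**
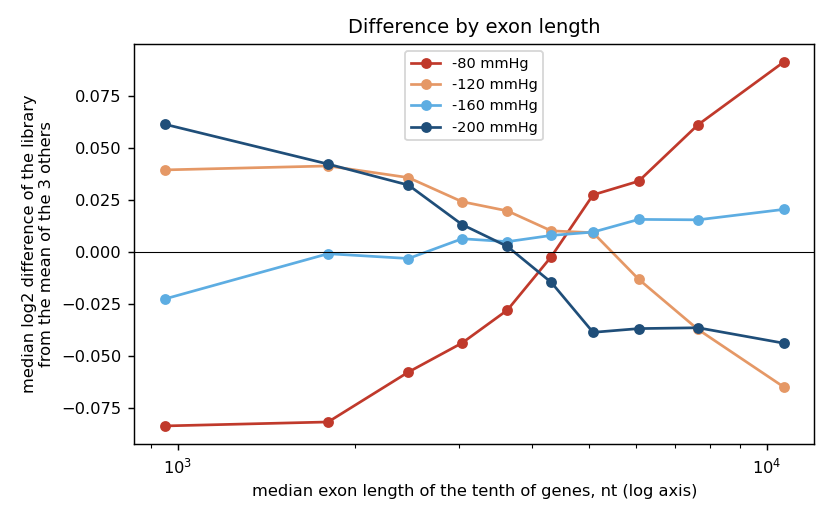
Median log2 difference of each pressure library from the mean of the 3 others, in 10 groups of measured genes sorted by exon length (log axis). The -80 mmHg line climbs from -0.08 to 0.09, and the -120 and -200 mmHg lines run the other way.

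Of the genes higher at -80 mmHg, 12 had a gene symbol that is not a predicted name, exons of at least 200 nt and a read interval above 1. Piezo1, the mechanically gated cation channel, had 21.8 FPKM at -80 mmHg, 17.3 at -120, 16.2 at -160 and 15.1 at -200 mmHg, with 14 in the control. Its log2 difference was 0.41, with a read ratio of 1.35 (1.3 to 1.4). Vcl, which encodes vinculin, the protein that ties integrin adhesions to actin, had 14.3 FPKM at -80 mmHg against 9.94, 11.6 and 10.2 at the stronger pressures and 3.93 in the control, a difference of 0.41. Both genes are highest at -80 mmHg by the rule that chose them, and the control lay below all 4 pressures.

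Proteins of the cell surface and of the matrix were among the others. Lrp1, a large endocytic receptor, had 283 FPKM at -80 mmHg, 254 at -120, 192 at -160 and 193 at -200 mmHg, with 98.1 in the control; its log2 difference was 0.42 and its ratio 1.33 (1.32 to 1.34). The -120 mmHg library was thus nearer to -80 mmHg than to the stronger pressures for Lrp1. Col4a1, the alpha 1 chain of basement membrane collagen IV, went down at every step, with 55.2, 47.9, 39.6 and 37.3 FPKM from -80 to -200 mmHg and 43.1 in the control, a difference of 0.41. Fat1, an atypical cadherin, had 30.6 FPKM at -80 mmHg against 24.7, 21.8 and 22.1, and 8.40 in the control. Piezo1, Vcl, Lrp1, Col4a1 and Fat1 all have long exons, from 7464 nt in Col4a1 to 17717 nt in Lrp1. With the length trend removed none of these 5 genes reached the 1.3-fold size, and their differences were 0.29 for Fat1, 0.30 for Lrp1, 0.32 for Piezo1, 0.34 for Vcl and 0.35 for Col4a1.

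The other higher genes included regulators of transcription and of the cell cycle, with shorter exons. Hoxa6, a homeobox transcription factor, had 7.29 FPKM at -80 mmHg against 4.20, 4.84 and 4.94, and 1.80 in the control; this is 106 reads against 61, 72 and 78 at the other pressures, with a ratio of 1.56 (1.22 to 1.98). Foxs1, a forkhead transcription factor, had 16.0 FPKM against 13.0, 10.8 and 10.4, with 11.5 in the control. Cdc25b, a phosphatase that activates cyclin-dependent kinases, had 8.46 FPKM against 6.66, 6.29 and 5.44. Its control value was 13.8 FPKM, above all 4 pressures. Ston1, an adaptor of endocytosis, had 16.4 FPKM against 11.6, 11.9 and 10.8, and 5.84 in the control. Hoxa6, Foxs1, Cdc25b and Ston1 kept a difference of at least 1.3-fold with the length trend removed, at 0.65, 0.57, 0.45 and 0.47, as did the histone gene Hist1h2bg and Prtn3. Ankrd52, a regulatory subunit of protein phosphatase 6, had 13.6 FPKM against 10.3, 9.59 and 9.85 and did not keep it. Hist1h2bg shares much of its sequence with other H2B genes, so reads could be split between the copies.

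Among the genes lower at -80 mmHg 32 met the same conditions, and the 20 largest are named here. Ndufa4l2, a mitochondrial protein known as a target of hypoxia-inducible factor, had the largest difference. It had 18.4 FPKM at -80 mmHg, 25.4 at -120, 38.0 at -160 and 27.3 at -200 mmHg, a log2 difference of -0.66 and a ratio of 0.611 (0.542 to 0.687). The control had 2.13 FPKM, so the -80 mmHg library was the nearest of the 4 pressures to it. Dbp, a clock-controlled transcription factor, had 13.6 FPKM at -80 mmHg and 16.6 to 20.2 at the others, with 10.1 in the control. Bdkrb1, the bradykinin B1 receptor, had 8 FPKM against 12.3, 11.7 and 11.3, and 5.91 in the control. For Dbp and Bdkrb1 too, the -80 mmHg value lay between the control and the stronger pressures.

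In most of the 20 the control was instead the highest library. Phf11b, a PHD finger protein, had 39.7 FPKM in the control, 3.96 at -80 mmHg, and 7.12, 6.11 and 6.74 at the stronger pressures, with a difference of -0.62. Ly6c1, a surface antigen anchored by a lipid, had 71.2 FPKM in the control and 13.4 at -80 mmHg, against 18.7, 18.3 and 18.4. Morn2 had 11.7 FPKM in the control and then 6.23, 8.45, 9.59 and 11.1 from -80 to -200 mmHg. Phf11b and Ly6c1 were thus farthest from the control at -80 mmHg, and Morn2 stood nearer to it with each stronger pressure. Lsm5, a subunit of the ring that binds U6 snRNA, had 14.9 FPKM at -80 mmHg, close to the 15.4 at -120 mmHg, and 22.0 and 24.7 at the stronger pressures. Nme1, a nucleoside diphosphate kinase, had 5.81 FPKM against 7.80, 8.78 and 7.74, and 15.9 in the control. Hmgn5, which binds nucleosomes, had 10.1 FPKM against 12.5, 17.0 and 14, and C1qtnf12, a secreted protein of the C1q family, had 4.75 against 6.13, 7.49 and 7.42.

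The others in this group were Cdc42ep5, Ccdc152, Tmem141, B3galt4, Dnajc30, Ethe1 and Ssu72, with log2 differences from -0.46 to -0.41, and Trim30d, Ifit3b and Ifi27l2a, which are described with the interferon response. With the length trend removed 7 of the 20 lower genes still passed the size rule, namely Ndufa4l2, Phf11b, Morn2, Bdkrb1, Hmgn5, Trim30d and Nme1. Of the 12 higher genes 6 did. Over the 20 lower genes the control was above all 4 pressures in 13 and below all of them in 4, and over the 12 higher genes it was below in 9 and above in 1. Over all measured genes it was below in 3859 and above in 2677.

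**Figure D3:**
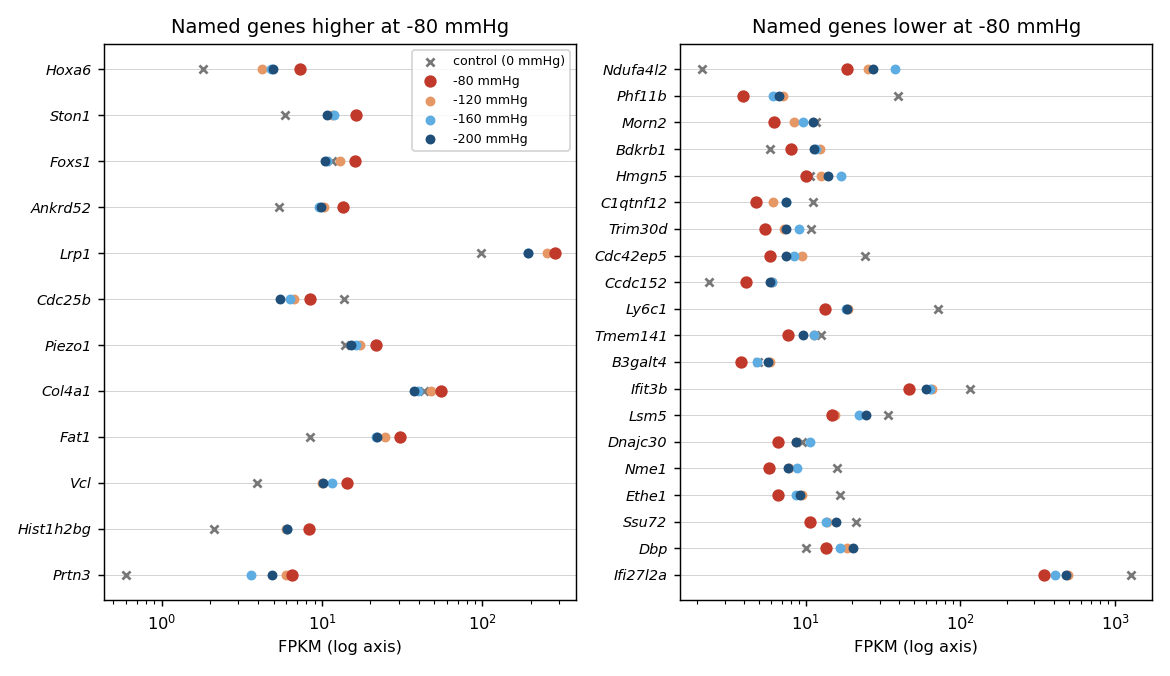
FPKM on a log axis of the 12 named genes higher and the 20 named genes lower at -80 mmHg, with 1 point per library. The -80 mmHg point lies outside the other 3 pressures in each row, by the rule that chose them, while the control (crosses) is the lowest library for most of the higher genes and the highest for 13 of the 20 lower genes.

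Interferon response genes were lower at -80 mmHg as a group. The list has 45 genes and 38 were measured, with 33 below and 5 above the mean of the stronger pressures, and -80 mmHg was the lowest of the 4 libraries in 28 of 38. The lowest of 4 was -80 mmHg in 29.2% of all measured genes. The median log2 difference of the list was -0.18, or -0.14 with the length trend removed, and it lay between -0.19 and -0.14 under the other scalings and between -0.22 and -0.16 with 1 of the 3 stronger pressures left out. Of the 38 members 2, Ifit3b and Ifi27l2a, passed the size rule, beside 0.704% of all measured genes called lower. Against single libraries the median was -0.23 for -120 mmHg, -0.22 for -160 mmHg and -0.13 for -200 mmHg.

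Ifi27l2a, an interferon-inducible gene, had 348 FPKM at -80 mmHg, 498 at -120, 408 at -160 and 480 at -200 mmHg, with 1264 in the control. Ifit3b, of the family of proteins that bind foreign RNA, had 46.5 FPKM against 65.4, 63.6 and 59.5, with 115 in the control. Ifit3b and its close copy Ifit3 may share reads, as may Trim30d and Phf11b with other members of their families, and Ifit3 had the same order of libraries, with 110 FPKM against 146, 139 and 129. Further members, chosen here after their values were seen, showed the size of the difference below the rule. Irf7, the factor that amplifies interferon production, had 78.4 FPKM against 117, 89.2 and 82.2. Dhx58, an RNA sensor, had 13.7 against 19.2, 18.4 and 16.1, and Mx2, an antiviral GTPase, had 10.6 against 13.0, 14.3 and 13.1. Bst2, or tetherin, had 569 FPKM against 773, 631 and 631. Isg15, a ubiquitin-like protein, had 74.7 FPKM against 91.0, 86.5 and 75.8, so -200 mmHg was close to -80 mmHg. Some members differed little: Irf1 had 9.49 against 9.49 to 9.61, and Ifi27 had 303 against 290 to 309. In 32 of the 38 members the control lay above all 4 pressures, as in Isg15 with 1051 FPKM. Trim30d, a member of the TRIM30 family outside the list, had 5.42 FPKM at -80 mmHg against 7.21, 9.03 and 7.44, and 10.9 in the control.

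The promoters of these genes were searched because GAAA repeats are the letters that interferon-activated factors are known to bind. The window was 300 bases, from 250 before to 50 after the start in RefSeq on GRCm38.p6, and the letters were GAAANNGAAA on either strand (TTTCNNTTTC on the reverse). They stood in 3.44% of 32851 promoters and in 4.13% of the 5814 measured genes with a promoter in the table. Of the 30 measured interferon response genes with a promoter there, 16 (53.3%) held them. Of 27 genes called lower 6 did (22.2%), namely Ifit3b, Trim30d, Phf11b, Cdca3, Mrps18c and Gm7030, and of 11 genes called higher none did. The promoters of the named genes among them are printed on their own strand with each match in capitals, which in Ifit3b starts 188 bases before the start, in Trim30d 41 and in Phf11b 50.
Ifit3b, chr19:34607707-34608006, plus strand: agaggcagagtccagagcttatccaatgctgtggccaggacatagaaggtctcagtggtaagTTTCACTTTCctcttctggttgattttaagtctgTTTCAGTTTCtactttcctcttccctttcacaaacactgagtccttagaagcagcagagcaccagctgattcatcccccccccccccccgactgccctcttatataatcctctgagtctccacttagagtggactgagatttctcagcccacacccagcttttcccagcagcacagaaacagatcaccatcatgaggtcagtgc
Trim30d, chr7:104507800-104508099, minus strand: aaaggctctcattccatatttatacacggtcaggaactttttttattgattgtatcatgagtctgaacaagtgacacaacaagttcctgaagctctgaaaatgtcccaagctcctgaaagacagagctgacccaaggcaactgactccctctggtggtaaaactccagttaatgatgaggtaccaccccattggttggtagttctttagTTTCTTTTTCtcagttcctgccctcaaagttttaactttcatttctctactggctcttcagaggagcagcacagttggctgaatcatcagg
Phf11b, chr14:59341281-59341580, minus strand: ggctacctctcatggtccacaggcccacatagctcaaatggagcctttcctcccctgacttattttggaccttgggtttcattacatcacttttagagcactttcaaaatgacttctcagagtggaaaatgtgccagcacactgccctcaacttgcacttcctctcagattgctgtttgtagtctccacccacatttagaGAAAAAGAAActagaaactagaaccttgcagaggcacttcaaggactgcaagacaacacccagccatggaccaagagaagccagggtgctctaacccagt
A match in these windows is a description of the letters and was not tested as a binding site. Within the interferon list the median log2 difference was -0.19 for the 16 genes with the letters and -0.17 for the 14 without them. The 224 other measured genes with the letters had a median of -0.03, near the -0.01 of all measured genes.

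Matrix genes were higher at -80 mmHg as a group, with -120 mmHg close behind. Of 33 measured genes of the fibrillar and network matrix 27 were above the mean of the stronger pressures, 18 had -80 mmHg as the highest of 4 (23.8% over all measured genes), and the median log2 difference was 0.18. It was 0.07 against -120 mmHg, 0.22 against -160 mmHg and 0.23 against -200 mmHg. Col4a1 alone of the 33 passed the size rule, beside 0.532% of all measured genes called higher. The list has long genes, with a median of 6943 nt, and with the length trend removed its median was 0.10. Without the -200 mmHg library it was 0.11.

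Basement membrane genes, a group picked out after their values were seen, included the 3 largest differences on the list, those of Col4a1, Hspg2 and Col4a2. Col4a2, the partner chain of Col4a1, had 42.4 FPKM at -80 mmHg against 39.0, 29.2 and 31.4. Hspg2, the proteoglycan perlecan, had 42.6 against 38.4, 29.4 and 30.5. Nid2, which links laminin to collagen IV, had 91.9 against 82.6, 73.6 and 70.3. The laminin chains Lamb1 and Lamc1 and the linker Nid1 made up the rest, and in all 7 genes -80 mmHg was the highest of the 4, with differences from 0.09 to 0.41 and a median of 0.28, or 0.23 with the length trend removed. The main bone collagen Col1a1 instead had 551 FPKM at -80 mmHg and 564 at -120 mmHg, above 455 and 435 at the stronger pressures, with 930 in the control. Fn1, fibronectin, had 532 and 510 FPKM against 432 and 420. For Col1a1 and Fn1 the libraries thus fell into a higher pair, -80 and -120 mmHg, and a lower pair. Across genes, Spearman's rho between GC content and each library's difference was 0.604 at -120 mmHg, -0.355 at -160 mmHg and -0.365 at -200 mmHg. The difference of Col1a1 at -80 mmHg was 0.19, or 0.12 with length and GC trends removed. The part of GC content in this pairing was not tested. Lox, the enzyme that crosslinks collagen, stood higher at -80 mmHg alone, with 587 FPKM against 454, 450 and 463 and a difference of 0.37, just under the size rule. The list of collagen processing and crosslinking was not higher as a group. Of its 21 measured genes 12 were above and 9 below, and -80 mmHg was the highest of the 4 libraries in 4 and the lowest in 6. Its median was 0.02, or 0.01 with the length trend removed and -0.04 without the -200 mmHg library.

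Genes that sense force did not move as 1 group. Of 21 measured genes for mechanosensing channels and integrins 15 were above and 6 below, with a median of 0.12. It was 0.05 with the length trend removed and 0.07 without the -200 mmHg library. Of the 21 genes 2 passed the size rule, Piezo1 and Vcl, beside 0.532% of all measured genes called higher. The integrin Itgav had 17.7 FPKM at -80 mmHg against 12.7, 16.3 and 15.0, while Itgb1 had 290 against 267 to 296. The coat proteins of caveolae, membrane pits that flatten under stretch, were on the other side, with 26.7 FPKM of Cav1 at -80 mmHg against 30, 29.8 and 31.0, and 39.3 of Cavin3 against 47.6, 46.2 and 44.0. Among 19 measured targets of YAP and TAZ 14 were above and 5 below, with a median of 0.12, or 0.05 with the length trend removed. The secreted matricellular proteins Ccn1 and Ccn2 were below: Ccn1, the most abundant member, had 386 FPKM against 464, 475 and 468, and Ccn2 had 71.7 against 79.6, 89.2 and 89.3. Both stood between the control (131 and 19.3) and the stronger pressures. Amotl2, the next in level after Ccn1, was above, with 131 FPKM against 125, 112 and 104, and Ajuba had 21.5 against 19.9, 17.5 and 15.8. In 29 measured genes of the contractile cytoskeleton 14 were above and 15 below, with a median of -0.01 on either scale, and Flnc, a filamin, was at 21.9 FPKM against 20.5, 16.9 and 15.7 and Actb at 817 against 868 to 933.

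Wnt signalling was the list with every measured member above 0. All 14 of its 41 genes that were measured had a higher level at -80 mmHg than the mean of the stronger pressures, with differences from 0.02 to 0.30 and a median of 0.12. None passed the size rule, and -80 mmHg was the highest of the 4 in 6. With the length trend removed 13 of the 14 were above 0, and the median was 0.11. Without the -200 mmHg library the median was 0.07, and against -120 mmHg alone it was 0.04. The disheveled gene Dvl3, which relays the signal from the receptor, had 7.96 FPKM at -80 mmHg against 6.38, 5.98 and 6.56, and the receptor Fzd8 had 17.4 against 15.7, 14.4 and 12.5. Ctnnb1, which encodes beta-catenin, had 108 FPKM against 93.6, 99.6 and 94.9. The secreted inhibitors Dkk3 and Sfrp2 had the smallest differences among these, with 10.8 FPKM against 10.4 to 10.7 for Dkk3 and 16.2 against 15.3 to 16.5 for Sfrp2.

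Housekeeping machinery encoded by short genes was lower at -80 mmHg by small amounts. Of 78 measured ribosomal protein genes 74 were below, 57 with -80 mmHg as the lowest of 4, and the median log2 difference was -0.13. It was -0.06 with the length trend removed and -0.02 under quantile normalization, and without the -200 mmHg library it was -0.09. Rps21 had the largest difference of them, with 321 FPKM against 425, 372 and 414. Oxidative phosphorylation had 75 measured nuclear genes with 69 below, with a median of -0.11, or -0.03 with the trend removed. Ndufs6, a subunit of complex I, went the other way, with 31.7 FPKM against 25.8, 27.5 and 26.5. Of 31 proteasome subunits 30 were below and 25 lowest at -80 mmHg, with a median of -0.13, or -0.08 with the trend removed. Psmb2 had 55.0 FPKM against 63.0, 66.4 and 75.9. No member of these 3 lists passed the size rule.

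Chaperone genes were lower as well. Of 30 measured genes of the unfolded protein response and endoplasmic reticulum chaperones 23 were below, 20 with -80 mmHg as the lowest, and the median was -0.11, or -0.06 with the length trend removed. Hspa5, the main chaperone of the endoplasmic reticulum, had 324 FPKM at -80 mmHg and 348, 371 and 390 from -120 to -200 mmHg, with 233 in the control. Calr, or calreticulin, had 763 against 857, 860 and 904, with 608 in the control. Both stood in order of pressure, with the control below. Ddit3, the transcription factor CHOP, had 79.1 FPKM against 93.5, 90.4 and 97.8, the same as the 79.1 of the control. Of 19 heat shock genes 16 were below, with a median of -0.09, or -0.07 with the trend removed, and Hspa8 at 227 FPKM against 255, 263 and 279.

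Cell cycle lists were lower too, but here the -160 mmHg library stood apart. Of 25 measured genes of mitosis 22 were below with a median of -0.11, and of 28 of DNA replication 26 were below with a median of -0.10. Both medians were the same, to the second decimal, with the length trend removed. The -80 mmHg library was the lowest of 4 in only 9 and 7 of these. Plk1, a mitotic kinase, had 9.05 FPKM at -80 mmHg, 10.2 at -120 and 9.44 at -200 mmHg, against 15.1 at -160 mmHg. Pcna, the clamp of DNA polymerase, had 33.5, 32.6 and 37.0 at the same 3 pressures and 41.8 at -160 mmHg. Without the -160 mmHg library the medians were 0.02 for mitosis and -0.03 for DNA replication. Mki67 was under the 5 FPKM minimum, with 4.37 FPKM at -80 mmHg, 4.20 at -120, 7.13 at -160 and 4.29 at -200 mmHg. Cdc25b was the 1 mitotic gene past the size rule, in the other direction. In 24 of the 25 mitotic genes the control was above all 4 pressures, and in bulk RNA fewer dividing cells and less of each transcript per cell cannot be told apart.

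**Figure D4:**
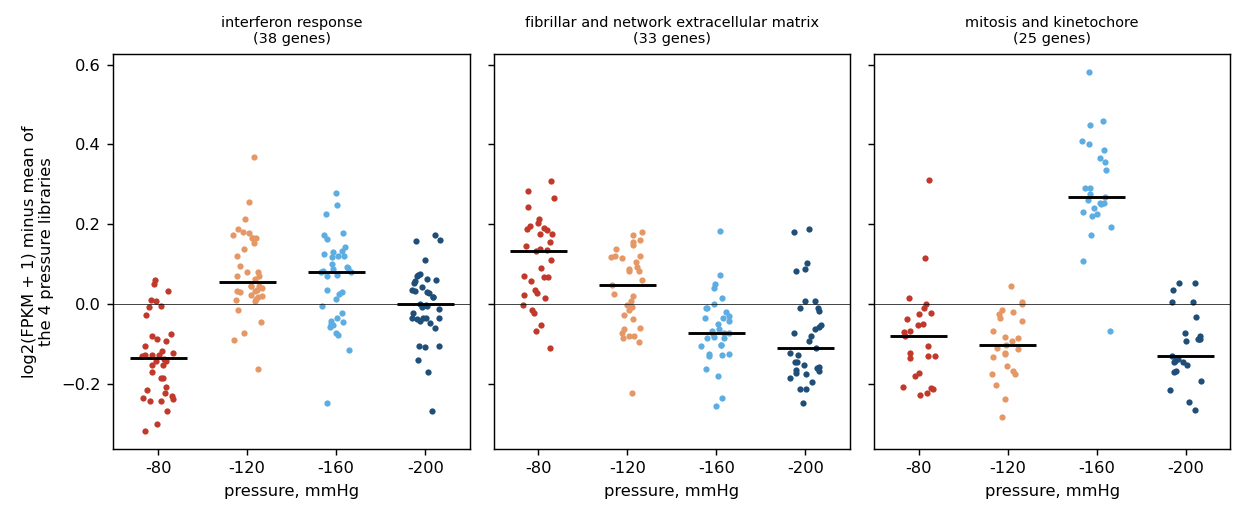
Each point is a gene's log2(FPKM + 1) in a pressure library minus its mean over the 4 pressure libraries, with bars at the medians. The 38 interferon response genes are low at -80 mmHg (median -0.14), the 33 matrix genes step down from 0.13 at -80 mmHg to -0.11 at -200 mmHg, and the 25 mitotic genes are set apart by -160 mmHg (0.27).

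The genes of bone formation differed little on the deposited values. The osteogenic list has 30 genes and 11 were measured, 9 above and 2 below, with a median of 0.04, or 0.07 with the length trend removed, and no call. This median was not stable, at 0.12 without the -160 mmHg library and 0.10 under quantile normalization. Runx2, the master regulator of osteoblasts, had 6.90 FPKM at -80 mmHg against 6.11, 5.79 and 6.22, and 3.49 in the control. Spp1, or osteopontin, had 100 FPKM against 81.7, 117 and 98.5, inside the range of the others, with 1750 in the control. Alpl, the bone alkaline phosphatase, was under the minimum, with 0.894 FPKM at -80 mmHg and 0.977 to 1.28 at the others. Bmp4 had 21.9 FPKM against 24.3, 21.3 and 23.7. In 27 measured genes of BMP and TGF-beta signalling 17 were above, with a median of 0.05, or 0.02 with the trend removed and 0.03 without the -200 mmHg library, and Tgfb1 had 7.01 FPKM against 6.01, 5.84 and 4.81.

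Signals to vessels and the hypoxia response differed in sign. Of 20 measured angiogenic factors 16 were above, with a median of 0.09 on either scale. Vegfa had 79.5 FPKM at -80 mmHg against 73.8, 81.5 and 70.6, inside the range of the others. Hgf, the hepatocyte growth factor, had 13.6 against 9.62, 12 and 12.7, while Pdgfa had 8.73 against 10.4, 10.5 and 10.7. Of 30 measured hypoxia targets and glycolytic enzymes 20 were below, with a median of -0.07, or -0.11 with the length trend removed. Gapdh had 387 FPKM against 432, 493 and 460, and Pkm 379 against 403, 441 and 390. The median of the hypoxia list was -0.18 against -160 mmHg and 0.00 against -200 mmHg, so it differed with the library of comparison.

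Stress and cytokine genes stayed near the median of all genes or slightly below. The immediate early genes had a median of -0.07 over 23 members, or -0.02 with the length trend removed and -0.03 without the -120 mmHg library, with 51.8 FPKM of Fos at -80 mmHg against 51.3, 53.6 and 60.8. Hmox1, or heme oxygenase 1, had 255 FPKM against 288, 287 and 305, and the antioxidant list a median of -0.05 over 34 members, or -0.03 with the trend removed. Il6 had 7.62 FPKM at -80 mmHg and 8.61, 9.37 and 11.1 with each stronger pressure, with 3.65 in the control. The list of inflammatory cytokines that holds Il6 had a median of -0.01 over 29 members on either scale. Ccl2 had 328 FPKM against 333, 332 and 346. The lists of cholesterol and fatty acid synthesis (36 measured) and of lysosomal genes (35 measured) had medians of 0.07 and -0.06, or 0.04 and -0.03 with the trend removed. The first was 0.04 without the -200 mmHg library, and the second turned to 0.02 under quantile normalization. Scd1, which desaturates fatty acids, had 109 FPKM against 91.8, 92.1 and 91.0.

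**Figure D5:**
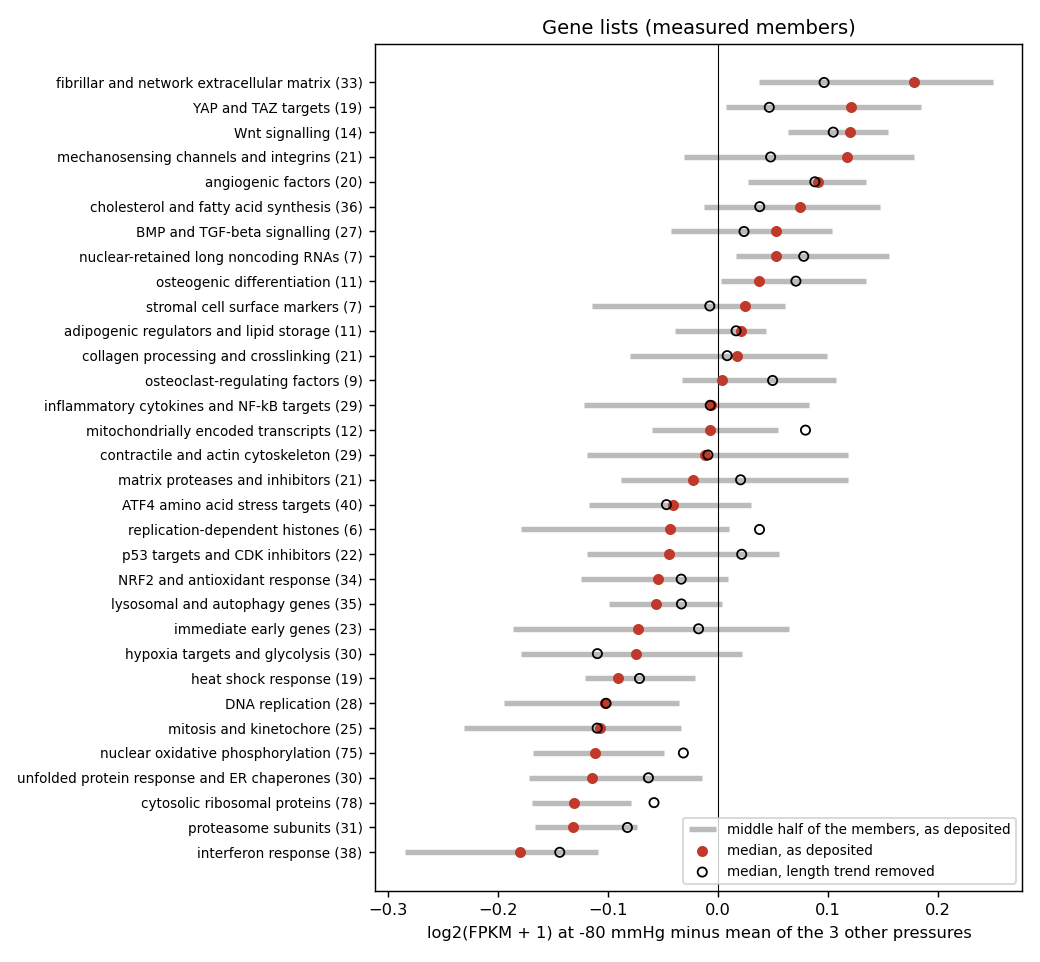
Median log2 difference at -80 mmHg of each list with at least 5 measured members, whose number is in brackets. Red points are deposited values, open circles have the exon length trend removed, and grey bars span the middle of the members, from the lower to the upper quartile. The interferon response is lowest in both, while ribosomal proteins and oxidative phosphorylation move toward 0 once the trend is removed.

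Few genes followed the pressure step by step. Of the 40 higher genes 7 (17.5%) went down at every step from -80 to -200 mmHg, among them Piezo1, Col4a1, Foxs1 and Cdc25b, and of the 53 lower genes 11 (20.8%) went up at every step, among them Morn2 and Lsm5. Together these are 18 of 93 genes, 19.4% (exact binomial interval 11.9% to 28.9%). This interval treats genes as independent, although all of them come from the same 4 libraries. The -80 mmHg library was the highest of 4, by any amount, in 1789 measured genes (23.8%) and the lowest in 2198 (29.2%), and 27.7% and 23.8% of these were ordered at every step. The share of ordered genes among the calls was thus no larger than among genes chosen with no size rule.

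The label of the cells was checked against 16 stromal surface markers, of which 7 were measured. Pdgfra had 71.5 FPKM at -80 mmHg against 63.7, 70.5 and 68.7, and Itgb1, Pdgfrb, Cxcl12, Cd44, Vcam1 and Ly6a were the others. The markers most used to define these cells were low in every library: Thy1 (CD90) had 1.51 FPKM at -80 mmHg and 1 to 1.83 at the others, Eng (CD105) 1.69 and 1.52 to 2.43, and Nt5e (CD73) 1.28 and 0.875 to 1.18. Ly6a, or Sca-1, was lower at -80 mmHg, with 622 FPKM against 827, 737 and 828 and 1740 in the control, a difference of -0.36. Over the 4 pressure libraries no osteoclast, endothelial, lymphoid, erythroid, cartilage, skeletal muscle or epithelial marker on the lists reached a mean of 5 FPKM. Of 20 macrophage markers 4 did, with Lyz2 at 10.9 FPKM against 11.2, 9.83 and 12.3 and Cd68 at 7.08 against 7.57, 5.70 and 5.99. Of 12 granulocyte markers 2 did. Prtn3, a protease of neutrophil granules, passed the size rule with 6.49 FPKM at -80 mmHg against 5.98, 3.63 and 4.86, while Camp, another granule protein, had 19.0 against 24.6, 18.8 and 22.1. Summed over the macrophage list, FPKM was 164 at -80 mmHg, 169 to 179 at the stronger pressures and 365 in the control. Of the 20 markers 16 were under the 5 FPKM minimum, so this sum rests on few of them and is no measure of macrophage content. Itgam, Tyrobp, C1qa, C1qb and C1qc were listed at 0 in all 4 pressure libraries. The granulocyte sum was 26.2 against 24.3 to 31.4, with 9.1 in the control, and S100a9, Mpo, Ctsg and Ltf were listed at 0 in the same 4. The osteoclast sum was 7.14 FPKM at -80 mmHg and 7.18 to 7.9 at the stronger pressures, with 92.7 in the control. The part of these cells in the differences above was not tested.

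Nuclear and mitochondrial RNA were examined as well. Malat1, a noncoding RNA kept in the nucleus, had 285 FPKM at -80 mmHg, 235 at -120, 206 at -160 and 297 at -200 mmHg, inside the range of the others. The 7 measured genes of this kind had a median of 0.05, or 0.08 with the length trend removed. Of 12 measured mitochondrial transcripts 6 were above and 6 below with a median of -0.01, but with the length trend removed 10 were above and 2 below with a median of 0.08, and mt-Nd5, at 0.38, passed the size rule. On the deposited scale mt-Nd5 was at 1511 FPKM against 1014, 1336 and 1345, and mt-Co1 was at 7965 against 6935, 7606 and 8134.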

How the data were processed

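RNA-seq of 5 mouse libraries was used, 1 per condition. Values are FPKM for each gene, as deposited by the authors. The tools named, per the submitters' processing notes, are featureCounts 1.5.0-p3, SAMtools and HISAT2, with the build rn6. That is a rat genome, whereas the table lists 55401 Ensembl IDs that are all of mouse. Gene names, exon lengths and biotypes came from GENCODE M21 (55141 IDs matched, 54349 of them in the same version). The product of FPKM and exon length came to whole reads in 54719 genes (98.8%, tolerance 0.001 reads), which made up 98.1% to 98.5% of the library totals. They served for read numbers and for Clopper-Pearson intervals of read ratios, -80 mmHg against the 3 other pressures pooled, which treat reads as independent. The strand setting of the counting is not stated, so overlapping genes and near-identical copies may share reads.

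The members and the 41 gene lists were chosen with earlier results of these data known, and no list was tested. With 1 library per condition no model was fitted and no p-value is given. Named genes are up to 20 calls in each direction (symbol not predicted, at least 200 nt, read interval excluding 1), up to 4 calls per list, the 2 most abundant members of lists without calls, and 12 genes fixed by name. The basement membrane group and all other members given were picked with their values in view. The length trend was removed from each library as its median deviation in 50 bins of exon length. The rule was run on simulated reads with counting error alone, for genes of at least 200 nt and set changes of 1.5-fold and 2-fold. Those reads held no variation between cultures or libraries and no length trend. They therefore cannot show how often the 1.3-fold rule errs on single libraries. Alternatives were pseudocounts of 0.1 and 5, no minimum or means of 1 and 20 FPKM, a trimmed mean (30%), upper-quartile and quantile scaling, the 50 most abundant genes left out, leaving out each stronger pressure, the median of the 3, other fold sizes, no range condition, a read interval excluding 1, protein-coding genes or exons of at least 200 nt alone, and removal of trends with length or GC content, of which the GC settings were chosen after seeing the data. Promoters came from RefSeq, GRCm38.p6. Scripts ran in Python 3.11.15 (scipy 1.17.1, numpy 2.4.6, matplotlib 3.10.9, pandas 2.3.3).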

Additional observations from a re-analysis of the deposited data

How the results depend on the processing

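The 40 higher and 53 lower genes depended on the minimum level and on the size required. Higher and lower genes numbered 18 and 16 with a pseudocount of 5, 782 and 348 with no minimum FPKM, 225 and 193 with a mean of at least 1, and 8 and 9 with a mean of at least 20. They numbered 139 and 204 at 1.2-fold, 14 and 10 at 1.5-fold and 7 and 1 at 2-fold, and 14 and 34 among coding genes. Genes of at least 200 nt gave 21 higher. With the 50 most abundant genes left out 31 were lower, with the length trend removed 25, and with length and GC trends removed 26. Leaving out 1 of the stronger pressures gave 38 to 61 higher genes, 61 without the -120 mmHg library, and 58 to 66 lower genes. The share of called genes ordered by pressure, 19.4%, was 8.33% at 1.5-fold and 0% at 2-fold. Of 32 lists, 11 had a median of at least 0.1 in size. This was 6 with a pseudocount of 5, 7 with the most abundant genes left out, 5 with the length trend or with length and GC trends removed, and 7 to 12 with 1 pressure left out, 7 without the -200 mmHg library. Of the 32 named genes past 1.3-fold, 6 stayed past it with a pseudocount of 5, 6 had a mean of at least 20 FPKM, 13 stayed with the length trend removed, 15 with length and GC trends removed, and 24 to 29 with 1 pressure left out. The median of the mitotic genes ran from -0.1799 to 0.0179 with 1 pressure left out, and was 0.0179 without the -160 mmHg library. No named gene past the size rule changed sign under any of these settings, but for most of them the rule itself fixes this. A called gene lies outside the range of the stronger pressures. Leaving out 1 pressure, the median or another pseudocount therefore cannot turn its sign. Other minimum levels, fold sizes and gene subsets do not alter its difference. Scaling and trend removal could turn a sign only by a shift beyond the 1.3-fold size. The unchanged signs are thus no separate check. No paired analysis was possible because each condition has 1 library. Depth limits the lowest genes, since Hoxa6 rests on 61 to 106 reads in the pressure libraries.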
